A study of Rattus norvegicus and Bos taurus with 12 samples.

Results

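RNA sequencing compared adult rat ventricular myocytes (ARVM) kept for 7 days in medium conditioned by cardiac fibroblasts of calves with pulmonary hypertension (PH-CM ARVM) with freshly isolated ARVM. The comparison covers every gene of the ARVM table, 7052 genes of the 9167 that the tables of the series hold, in 6 of the 12 libraries. Ventricular cells of healthy adult Sprague Dawley rats were released by collagenase digestion of the whole heart, and 3 libraries came from such cells without culture (con4, con5 and con6). Another 3 (ha2, ha209 and ha211) came from cells cultured in PH-CM, medium that had stood on right ventricular fibroblasts of calves made hypertensive by low air pressure. The treatment field of the labels speaks instead of serum, from cows at low altitude or at high altitude, and the design text names an untreated control. ARVM cultured in any other medium were not analysed here, so that time in culture and the conditioned medium cannot be told apart. Values are listed in the order of these names. The sex of the rats was not given in the sources used here, and neither was whether a library came from 1 animal.

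An adult ventricular myocyte is a terminally differentiated cell packed with sarcomeres and mitochondria, and it draws most of its energy from the oxidation of fatty acids. In culture adult myocytes can dedifferentiate, a process known for loss of striations, spreading, return of fetal isoforms of contractile proteins and gain of actin stress fibers. Preparations of myocytes from digested ventricles also carry fibroblasts, endothelial cells, mural cells, macrophages and blood cells, some of which divide in culture.

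All values below are normalized counts, reads divided by 1 size factor per library, and they were not divided by the length of the gene. A value therefore compares 1 gene between libraries and not a gene with another. Means are given ± SD over the 3 libraries of a group, and the log2 fold change is the difference of log2(normalized count + 1), PH-CM ARVM minus freshly isolated ARVM. Genes were called with limma at an adjusted p below 0.05 (Benjamini-Hochberg over all 7052 genes), and 6882 genes, 97.6% of those tested, passed. The table holds genes that the authors had selected for a difference between these groups, and in all 7052 genes the 3 values of a group lay entirely above or below those of the other. Neither the share of calls nor the absence of overlap is therefore a result about any gene. The p-values below were computed after that selection on the same libraries. Their adjustment over the selected genes does not control the false discovery rate, and they are given as descriptions. Of the 7052 genes, 3802 or 53.9% were called higher and 3080 or 43.7% lower, and the median log2 fold change over all genes was 0.37. Each library held between 12122463 and 18842171 reads on these genes. A share of reads below is a percent of these reads, so genes outside the table are left out and the size factors play no part. Normalized counts summed over these genes were lower after culture, so shares rise more or fall less than normalized counts do. The median over genes of the coefficient of variation within a group was 9.74% in freshly isolated ARVM and 10.1% in PH-CM ARVM. Scaling the libraries to equal totals in place of the size factors raised the median log2 fold change by 0.42, turned the sign of 642 genes and gave 71.6% higher among the calls against 55.2%, so that directions of small changes rest on the scaling. Gene lists by function, given below, hold members that the table does not. A member is called listed where the table holds it, and the others were not analysed here. Counts of members that rose or fell are to be read against the 53.9% and 43.7% of all genes.

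Genes that fell were fewer but held more of the reads. Among called genes, 2278 rose and 1127 fell by more than 1 log2 unit, and 950 rose and 144 fell by more than 3. Summed over genes, the means gained 4115270 normalized counts and lost 8922300 normalized counts. Among the 100 genes with the most reads in freshly isolated ARVM, 75 fell, and among the 100 with the most reads in PH-CM ARVM, 84 rose. Ranking by 1 group favors genes that are higher in it, so these counts follow in part from the ranking. Of genes with a mean from 10000 to 100000 in freshly isolated ARVM, 32.5% were called higher. Where the mean was that of PH-CM ARVM, 67.5% were. The sets of 100 had 41 genes in common, 41% of each. Reads were spread over more genes after culture, since 145, 145 and 150 genes made up 50% of the reads in freshly isolated ARVM and 190, 191 and 189 in PH-CM ARVM.

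**Figure D1:**
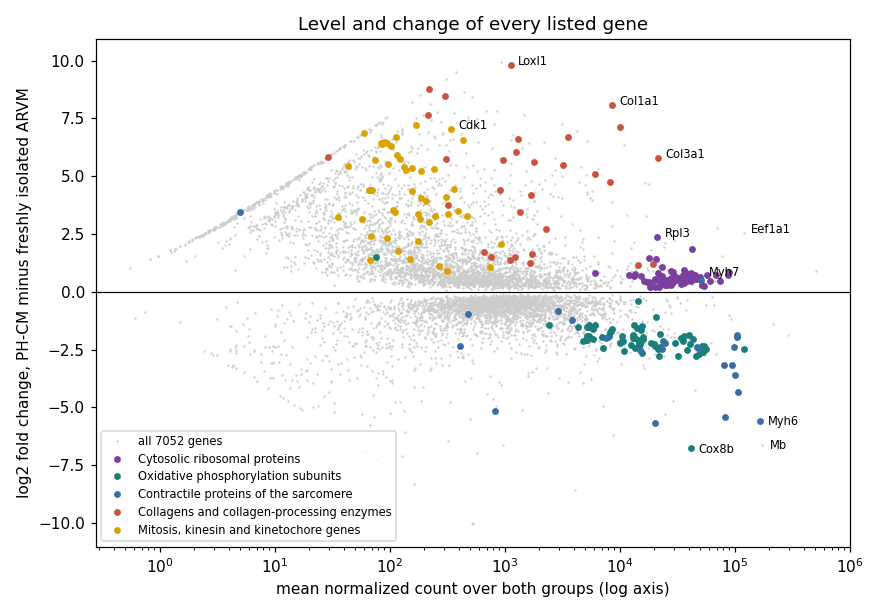
The log2 fold change of each of the 7052 genes is plotted against the mean normalized count of both groups on a log axis, with 5 gene lists in color. Most contractile and oxidative phosphorylation genes lie at the right below 0, except Myh7, Tnnt3 and Cox4i2 above it, and the 70 ribosomal protein genes lie at the right above 0, most of them close to it with Rpl3 the highest. The 30 collagen genes and 49 mitosis genes lie above 0, most of them to the left of the ribosomal ones.

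The genes with the most reads in freshly isolated ARVM were, in order, Ankrd1, Rmrp, Mb, Myh6, Rn18s, Atp5b, Tnni3, Myl3, Tpm1 and Cox6a2. Ankrd1 encodes a stretch-responsive titin-binding repressor, Mb myoglobin, Atp5b the catalytic subunit of ATP synthase and Cox6a2 the muscle form of a cytochrome oxidase subunit. Of these, 8 encode proteins of muscle or mitochondria, and all 8 fell, a direction that ranking by this group favors. In PH-CM ARVM the order was Rmrp, Eef1a1, Ankrd1, Reg3b, Rn18s, Rps18, Fth1, Rplp1, Rpl41 and Rpl37a, of which 4 encode ribosomal proteins, and Eef1a1 the elongation factor that brings aminoacyl-tRNA to the ribosome. Reg3b, a secreted lectin, was at 20499, 16897 and 15766 in freshly isolated ARVM and 139846, 102830 and 123131 in PH-CM ARVM. Fth1, the ferritin heavy chain that stores iron, rose from 39287 ± 3624 to 116348 ± 6332. Rmrp and Rn18s are noncoding RNAs of ribosome synthesis and of the ribosome. Rmrp took 1.89% of reads in freshly isolated ARVM and 4.67% in PH-CM ARVM, and Rn18s, which ribosomal depletion had been meant to remove, 1.66% and 0.842%.

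**Figure D2:**
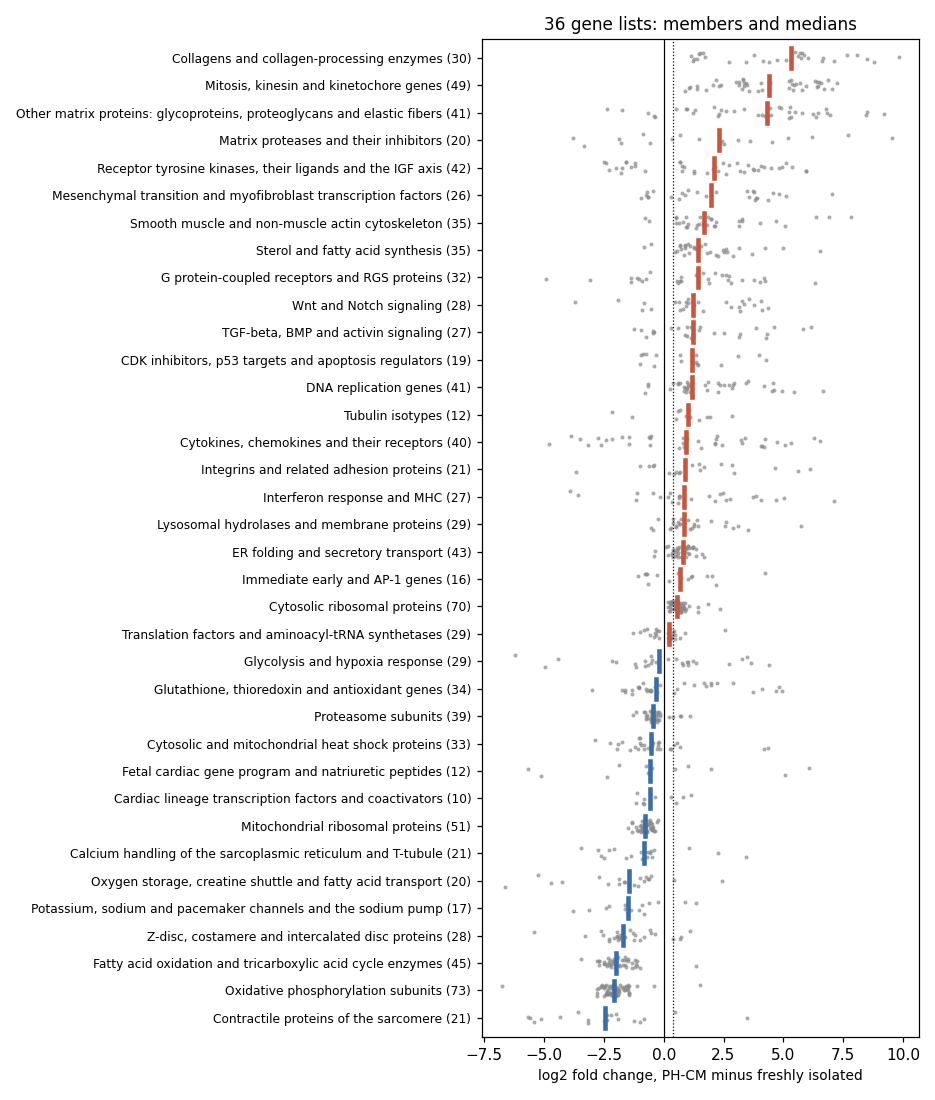
Each grey point is a listed member of 1 of 36 gene lists at its log2 fold change, the bar is the median of the list and the dotted line the median of all 7052 genes, 0.37, with the number of listed members in brackets. The medians run from -2.44 for contractile proteins to 5.31 for collagens, and points of both signs stand in most lists.

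Contractile proteins of the sarcomere fell with large differences between members. Of 28 members 21 were listed, 19 fell and 2 rose where 43.7% of all genes fell, with a median log2 fold change of -2.44 against 0.37 over all genes, and their share of reads went from 9.68% ± 0.199 to 1.799% ± 0.197. Myh6, the fast α-myosin heavy chain of adult rodent ventricle, was at 320263, 323911 and 343020 in freshly isolated ARVM and 7193, 7339 and 6194 in PH-CM ARVM (log2 fold change -5.58, SE 0.098, adjusted p = 4.37e-08, limma). No cultured library reached 3% of the level in any freshly isolated one. Myh7, the slow β-myosin heavy chain that dominates in fetal rodent ventricle, was at 39629, 42166 and 45527 in freshly isolated ARVM and 67204, 59686 and 52783 in PH-CM ARVM (log2 fold change 0.49, SE 0.11, adjusted p = 0.00411, limma). The rise was small beside the fall of Myh6. Tnni3, cardiac troponin I, was at 219086, 206716 and 190801 in freshly isolated ARVM and 11865, 9785 and 8738 in PH-CM ARVM (log2 fold change -4.35, SE 0.13, adjusted p = 1.20e-07, limma).

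Members of the thick and the thin filament were found among the large and the small falls. Myl2, the ventricular regulatory light chain, went from 162443 ± 19731 to 3745 ± 513 (log2 fold change -5.44) and Myl3, the ventricular essential light chain, from 187850 ± 21127 to 15739.7 ± 3549.5 (-3.60). Acta1, skeletal α-actin, had the largest fall in the list and was at 34003, 42826 and 43238 in freshly isolated ARVM and 681, 1082 and 647 in PH-CM ARVM (log2 fold change -5.67, SE 0.19, adjusted p = 2.22e-07, limma). Actc1, cardiac α-actin, fell by less, from 165477 ± 5765 to 44825 ± 5931 (-1.89). Tpm1, tropomyosin, fell from 171387 ± 86.8 to 19024 ± 1469.6, Tnnt2, cardiac troponin T, from 167134 ± 3288 to 32124 ± 1903, and Mybpc3, myosin binding protein C, from 81325 ± 2756 to 14963 ± 1215. The other rise, taken here after its value was seen, was Tnnt3, fast skeletal troponin T, at 0, 0 and 0 in freshly isolated ARVM and 9.83, 9.49 and 11.002 in PH-CM ARVM. Titin (Ttn) was among the 7 members not in the table. In bulk RNA fewer myocytes and less RNA of a gene per myocyte cannot be told apart, here or in any result below.

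Z-disc, costamere and intercalated disc genes fell in most listed members. Of 37 members 28 were listed, 24 fell and 4 rose, with a median of -1.72, and the share of reads went from 5.14% ± 0.08295 to 2.37% ± 0.322. Ankrd1 was at 483590, 452182 and 443945 in freshly isolated ARVM and 129158, 142776 and 107540 in PH-CM ARVM (log2 fold change -1.87, SE 0.19, adjusted p = 4.79e-05, limma), and it went from the first place by reads to the third. Ankrd2, its close relative, was at 127, 149 and 151 in freshly isolated ARVM and 5.29, 0 and 5.08 in PH-CM ARVM and had the largest fall of the list. Cryab, the small heat shock protein αB-crystallin that binds desmin, went from 118335 ± 2876 to 58936 ± 4875, and Actn2, sarcomeric α-actinin, from 44893 ± 5669 to 11558 ± 1130.2 (log2 fold change -1.95). The 4 that rose, named after their values were seen, were Gja1, Vcl, Dsc2 and Cdh2. They encode connexin 43, vinculin, desmocollin 2 and N-cadherin, proteins of cell junctions and of the link between membrane and actin. Gja1 had the largest rise of the list, from 5038 ± 186 to 10845 ± 569, and Vcl rose from 4558 ± 289 to 7457 ± 354. Other junction members of the list fell, Jup, plakoglobin, from 4425 ± 736 to 2484 ± 50.4 and Pkp2, plakophilin 2, from 1641 ± 143 to 1124 ± 57.8, both also named after their values were seen.

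Calcium handling genes were lower in most members, and inhibitors of the calcium pump fell unequally. Of 28 members 21 were listed, 18 fell and 3 rose, with a median of -0.84, or -0.41 with equal totals. Atp2a2, the sarcoplasmic reticulum calcium pump SERCA2, was at 97275, 91498 and 93998 in freshly isolated ARVM and 15473, 14722 and 12444 in PH-CM ARVM (log2 fold change -2.73, SE 0.1, adjusted p = 2.81e-07, limma). Pln, phospholamban, which restrains that pump, was at 35674, 33406 and 32095 in freshly isolated ARVM and 24668, 18851 and 20708 in PH-CM ARVM (log2 fold change -0.66, SE 0.11, adjusted p = 6.54e-04, limma). Sln, sarcolipin, which also restrains the pump, fell from 163 ± 5.84 to 14.1 ± 1.79 (log2 fold change -3.44). The pump was thus down 6.63-fold, phospholamban 1.58-fold and sarcolipin 11.5-fold. Ryr2, the calcium release channel, fell from 22612 ± 990.1 to 5298 ± 422. The 3 that rose were Itpr1, the inositol trisphosphate receptor, from 761 ± 24.7 to 1579 ± 119.8, Bin1, a protein of T-tubule folds, from 148 ± 23.4 to 719 ± 105, and Fkbp1b, a ryanodine receptor partner, from 0 ± 0 to 10.02 ± 2.26, all 3 named after their values were seen. Of 29 ion channel and pump genes 17 were listed, 15 fell and 2 rose, with a median of -1.48. Fxyd1, phospholemman, a regulator of ion transport, fell from 11160 ± 214 to 3671 ± 448. The 2 that rose, taken after their values were seen, were Kcnj8, a potassium channel subunit of mural cells and myocytes, from 106 ± 22.1 to 195 ± 44.9, and Cacna1g, a T-type calcium channel, from 68.5 ± 16.4 to 177 ± 39.2.

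Genes of the respiratory chain fell almost as a block. Of 81 oxidative phosphorylation members 73 were listed, 72 fell and 1 rose, with a median of -2.10, and their share of reads went from 13.9% ± 0.194 to 4.04% ± 0.276. Medians by complex lay close to each other, at -1.93 for the 33 listed subunits of complex I, -1.85 for the 4 of complex II, -2.20 for the 9 of complex III, -2.13 for the 11 of complex IV and -2.26 for the 15 of ATP synthase. The share of reads on ATP synthase went from 4.87% ± 0.03705 to 1.37% ± 0.103, and that on complex I from 3.23% ± 0.0585 to 1.05% ± 0.0557. Atp5b was at 189667, 213899 and 216636 in freshly isolated ARVM and 40485, 34826 and 35185 in PH-CM ARVM (log2 fold change -2.49, SE 0.12, adjusted p = 1.02e-06, limma). Cox8b, the muscle form of cytochrome oxidase subunit 8, stood outside the block at 91109, 85629 and 70955 in freshly isolated ARVM and 875, 581 and 845 in PH-CM ARVM (log2 fold change -6.76, SE 0.16, adjusted p = 9.84e-08, limma), a 108-fold fall. The exception, named after its value was seen, was Cox4i2, the form of subunit 4 known for induction by hypoxia, which rose from 39.3 ± 9.93 to 114 ± 25.6.

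Enzymes of fatty acid oxidation and the tricarboxylic acid cycle fell in nearly every listed member. Of 46 members 45 were listed, 44 fell and 1 rose, with a median of -1.99, and their share went from 3.38% ± 0.0652 to 1.08% ± 0.0701. Hadhb, of the trifunctional protein of β-oxidation, fell from 50032 ± 5886 to 11551 ± 859, and Hadh, a dehydrogenase of that pathway, from 8313 ± 130.1 to 757 ± 87.5. The gene that rose was Cpt1a, the liver form of the enzyme that admits fatty acids to mitochondria, from 571 ± 52.4 to 1453 ± 97.3.

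Oxygen storage, the creatine shuttle and fatty acid transport included some of the largest falls of the table. Of 24 members of that list 20 were listed, 18 fell and 2 rose, with a median of -1.44 and a share of reads that went from 4.25% ± 0.0559 to 0.649% ± 0.0299. Mb was at 355111, 349731 and 324164 in freshly isolated ARVM and 3302, 4412 and 2883 in PH-CM ARVM (log2 fold change -6.62, SE 0.15, adjusted p = 8.83e-08, limma), a 97.1-fold fall from the third place by reads. Ckm, muscle creatine kinase, was at 49016, 58652 and 61689 in freshly isolated ARVM and 2615, 2096 and 1794 in PH-CM ARVM, and Fabp3, the heart fatty acid binding protein, at 89001, 88199.5 and 81986 in freshly isolated ARVM and 5197, 4605 and 3934 in PH-CM ARVM. Slc25a4, the muscle form of the ADP/ATP carrier, fell from 120386 ± 1903 to 18513 ± 754. The 2 that rose were Fabp5, the epidermal fatty acid binding protein, from 315 ± 41.4 to 1754 ± 599, and Plin2, a lipid droplet coat protein named after its value was seen, from 5175 ± 143 to 7004 ± 956.

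Glycolysis and hypoxia genes went both ways. Of 35 members 29 were listed, 14 rose and 15 fell, with a median of -0.21 that turned to 0.21 with equal totals. Muscle forms stood among the falls. Pgam2, muscle phosphoglycerate mutase, was at 16719.9, 17368 and 18047 in freshly isolated ARVM and 287, 223 and 195 in PH-CM ARVM, and Eno3, muscle enolase, at 14705, 13586 and 13553 in freshly isolated ARVM and 504, 459 and 397 in PH-CM ARVM. Slc2a4, the insulin-regulated glucose transporter GLUT4, fell from 4554 ± 193 to 214 ± 15.3. Gapdh fell from 128152 ± 9355 to 57452 ± 4760.3 and Aldoa, aldolase A, from 79182 ± 5512 to 54178 ± 6425. Aldoc, the brain form of aldolase, had the largest rise of the list and was picked after its value was seen, from 85.6 ± 47.04 to 1560.4 ± 61.2 (log2 fold change 4.38).

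Pairs of paralogs, one typical of adult striated muscle and the other of fetal or other tissue, were compared by the share of the second in the reads of both, which does not depend on the scaling of a library. Of 20 pairs 16 had both genes in the table. The second share was higher after culture in 15 and lower in 1. The groups did not overlap except in 1 pair. Where the genes of a pair moved in opposite directions, this follows from the selection of the table and is not a result. In bulk RNA both genes of a pair need not come from the same cells. The part in these shares of fibroblasts and other cells, whose markers are given below, was not tested. The share of Myh7 in the myosin heavy chains went from 11.4% ± 0.364 to 89.6% ± 0.6499. Pgam1 went from 20.3% ± 0.602 to 97.1% ± 0.573 of its pair with Pgam2, and Eno1, the ubiquitous enolase, from 53.1% ± 0.907 to 98.03% ± 0.293 with Eno3.

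Among the cytoskeletal pairs, Flna, non-muscle filamin, went from 10.9% ± 0.756 to 62.3% ± 8.49 of its pair with Flnc, and its 3 cultured libraries were spread widely. Actn1, non-muscle α-actinin, went from 1.02% ± 0.0873 to 13.8% ± 2.28 with Actn2, and Tpm4, non-muscle tropomyosin, from 0.676% ± 0.0434 to 16.7% ± 2.599 with Tpm1. Acta2, smooth muscle α-actin, went from 0.177% ± 0.0149 to 18.5% ± 4.89 with Actc1. In the last 3 pairs Actn2, Tpm1 and Actc1 still held the larger part of the reads. These counts were not divided by gene length and do not compare both genes of a pair in level. Among the rest, Eef1a1 went from 69.6% ± 2.77 to 96.4% ± 0.482 with Eef1a2. Ckb, brain creatine kinase, went from 5.55% ± 0.192 to 29.8% ± 6.16 with Ckm although its own level fell, from 3309 ± 275 to 909.9 ± 158. Fabp5 went from 0.363% ± 0.0323 to 27.6% ± 8.86 with Fabp3, and its cultured libraries were spread widely. Among mitochondrial pairs, Slc25a5 went from 7.67% ± 0.2998 to 26.2% ± 1.69 with Slc25a4, Cpt1a from 4.92% ± 0.446 to 22.5% ± 1.82 with Cpt1b and Cox6a1 from 9.04% ± 0.662 to 22.7% ± 0.733 with Cox6a2. Tubb6, a β-tubulin, went from 23.4% ± 0.948 to 30.9% ± 0.652 with Tubb4b. Atrial Myl7 took 0.989% ± 0.152 to 1.21% ± 0.3102 of its pair with Myl2, and there the groups overlapped. The pair that went the other way was Acta1 with Actc1, in which skeletal actin went from 19.4% ± 1.59 to 1.77% ± 0.515. Counts of near-identical paralogs depend on how reads that match both were assigned, which the sources used here do not state.

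**Figure D3:**
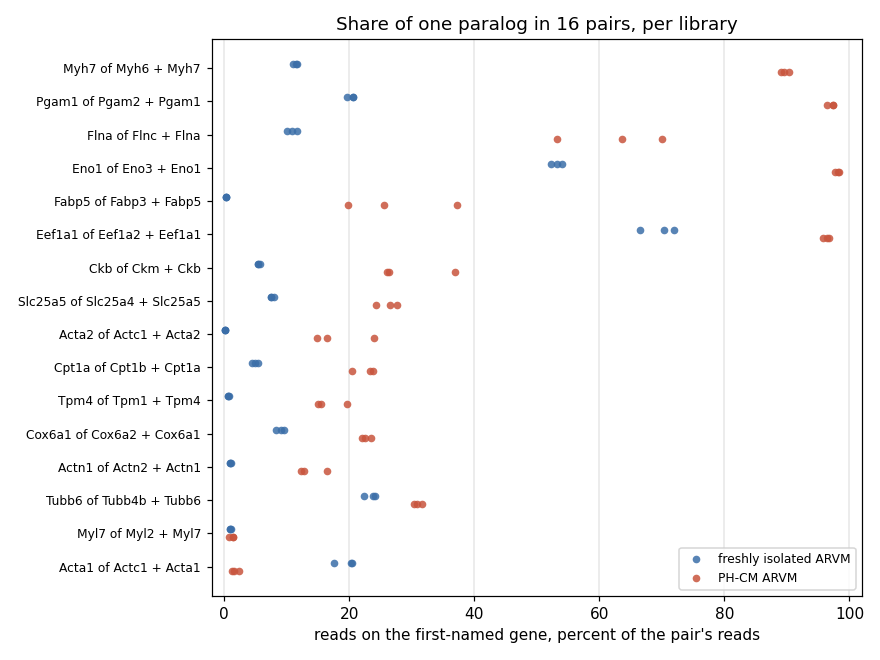
For 16 pairs of paralogs, the reads on the gene named first are given as a percent of the reads on both, 1 point per library, blue for freshly isolated ARVM and red for PH-CM ARVM. The share of Myh7 lies between 11.01% and 11.7% in the freshly isolated libraries and between 89.1% and 90.3% in the cultured ones, while Acta1 alone moves to the left.

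Cytosolic ribosomal proteins rose, most of them by a small step. Of 76 members 70 were listed and all 70 rose, with a median of 0.57, or 0.998 with equal totals, and a range from 0.18 to 2.37. Their share of reads went from 9.95% ± 0.108 to 20.2% ± 0.534, and the median change was 0.56 for the 28 proteins of the small subunit and 0.58 for the 42 of the large one. Rps18 was at 66012, 63594 and 62086 in freshly isolated ARVM and 115455, 112726 and 121991 in PH-CM ARVM and Rplp1 at 64113, 67160.2 and 66177 in freshly isolated ARVM and 98451, 116287 and 111636 in PH-CM ARVM. Rpl3 had the largest rise of the list, at 7219.7, 6883 and 6502 in freshly isolated ARVM and 35988, 32772 and 37633 in PH-CM ARVM (log2 fold change 2.37, SE 0.075, adjusted p = 1.62e-07, limma). Rpl3l, its muscle-specific paralog, which was not on the list and was added after the data were seen, fell from 5539 ± 195 to 420.2 ± 26.2. Among 55 translation factors and aminoacyl-tRNA synthetases 29 were listed, 17 rose and 12 fell, which is near the 53.9% and 43.7% of all genes. Eef1a1 was at 34571, 36859.9 and 33569 in freshly isolated ARVM and 203163, 206235 and 205797 in PH-CM ARVM (log2 fold change 2.55, SE 0.10, adjusted p = 4.33e-07, limma). Ribosomal proteins and Eef1a1 have many near-identical copies in the genome, and how reads shared with them were counted was not given. Eef2, the translocation factor, rose from 56297 ± 3892 to 78211 ± 2787.

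Mitochondrial ribosomal proteins went the other way. Of 75 members 51 were listed and all 51 fell, with a median of -0.79 that became -0.37 with equal totals, where 32 were called lower and 1 higher. Mrpl54 fell from 4858 ± 323 to 2523 ± 41.9 and Mrps14, with the largest fall, from 2517 ± 215 to 904 ± 88.9. Of 41 proteasome subunits 39 were listed, 33 fell and 5 rose, with a median of -0.44, or -0.016 with equal totals, where 7 were called lower and 11 higher. The 5 that rose, picked after their values were seen, were Psmb8, Psmb9, Psmb10, Psme2 and Psme3. The first 3 are the catalytic subunits of the immunoproteasome, and Psmb8 rose from 465 ± 93.4 to 1005 ± 135. Psme4, a proteasome activator, fell from 7549 ± 380.0 to 3076 ± 395.

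The secretory pathway and lysosome rose. Of 54 members of the list of ER folding and transport 43 were listed, 40 rose and 2 fell. The median was 0.81, or 1.23 with equal totals, and the share of reads went from 0.787% ± 0.0155 to 1.66% ± 0.0257. Sec61b, of the channel through which proteins enter the ER, rose from 1231 ± 102 to 3925 ± 415, the chaperones Calr, calreticulin, from 17155 ± 387 to 26776 ± 3433 and Hspa5, BiP, from 25714 ± 1896 to 32362 ± 1535. The 2 that fell, named after their values were seen, were Srp14 and Sdf2l1. Of 42 lysosomal members 29 were listed, 26 rose and 3 fell, with a median of 0.84. Ctsl, cathepsin L, rose from 17499 ± 639.8 to 21866 ± 1774, Cd63 from 13058 ± 820.0 to 18861 ± 272 and Ctss, cathepsin S, a protease of antigen-presenting cells, from 5.14 ± 4.45 to 228 ± 48.9. The 3 that fell, chosen after their values were seen, were Ctsc, Atp6v1b2 and Atp6v0b.

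**Figure D4:**
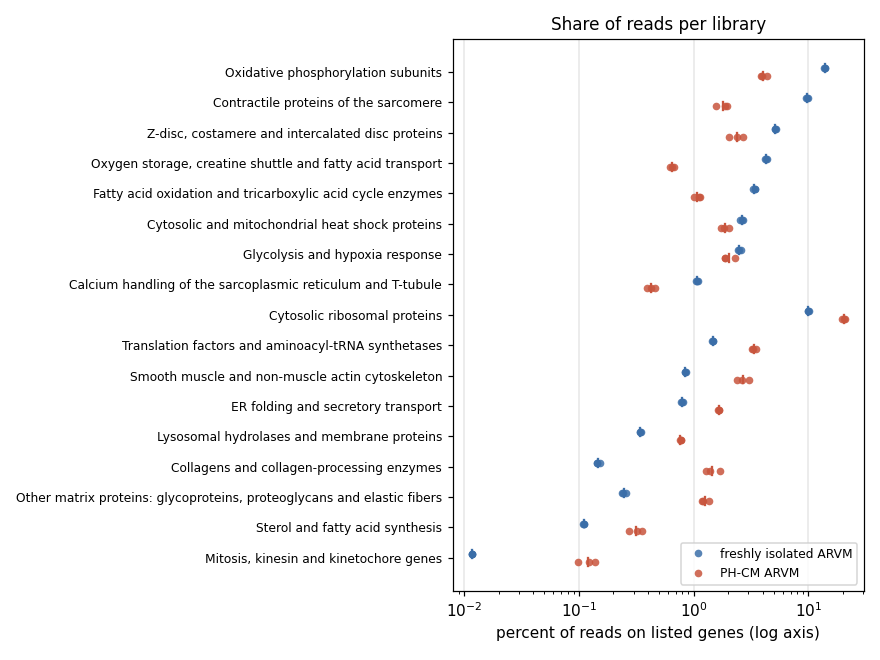
The percent of reads on listed genes that 17 gene lists hold is plotted on a log axis, 1 point per library with a bar at the mean of 3, blue for freshly isolated and red for PH-CM ARVM. Oxidative phosphorylation falls from 13.9% to 4.04% while ribosomal proteins rise from 9.95% to 20.2%, and collagens and mitosis genes gain about 1 power of 10 from low shares.

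Markers of other cells moved with the groups, and they stand here before the genes of the matrix and of cell division. All 13 fibroblast markers were listed and rose, and their summed level went from between 1621 and 2162 in freshly isolated ARVM to between 88309 and 132017 in PH-CM ARVM. Of 14 macrophage markers 13 were listed and all 13 rose, from a summed level between 309.6 and 426 to between 8317 and 12393. Of 10 epicardial and mesothelial markers 7 were listed and rose, from between 187 and 258 to between 4237 and 7873, and library ha209 held the lowest of the cultured sums. The part of such cells in the rises above and below was not tested.

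Among those markers, Lyz2, macrophage lysozyme, was at 55.4, 26.8 and 40.3 in freshly isolated ARVM and 5906, 5075 and 7730.2 in PH-CM ARVM, and C1qa, of complement, at 28.5, 12.9 and 57.8 in freshly isolated ARVM and 758, 535 and 844 in PH-CM ARVM. Aif1 and C1qc had no read in 2 of the 3 freshly isolated libraries. Msln, mesothelin, was at 99.7, 81.4 and 83.7 in freshly isolated ARVM and 2136, 976 and 2134 in PH-CM ARVM and Krt18, a keratin of simple epithelia, at 11.1, 0 and 10.3 in freshly isolated ARVM and 1125, 558 and 1165 in PH-CM ARVM, both lowest in library ha209 among cultured libraries. Endothelial markers went down, 10 of the 11 listed, with Tek, the angiopoietin receptor, from 1460.5 ± 115 to 271 ± 19.2, Vwf, von Willebrand factor, from 763 ± 153 to 102 ± 19.7, and Pecam1 from 2000.1 ± 188 to 1052 ± 93.98, and Emcn, endomucin, rose from 329.9 ± 63.9 to 471 ± 36.2. Of 11 mural markers 7 rose and 4 fell, with Rgs5 of pericytes down from 804 ± 197 to 309 ± 50.6 and Cnn1, calponin of smooth muscle, up from 3.86 ± 3.41 to 432 ± 67.03. Des and Abcc9, which fell, and Kcnj8, which rose, are also members of the Z-disc or channel lists. Des, desmin, went from 67582 ± 3576 to 45309 ± 5846. It held most of the mural sum, between 70342 and 77392 before and between 53925 and 63767 after culture. Hemoglobin genes had no read after culture. Hba1 was at 1204, 885 and 1041 and Hbb at 1111, 1056 and 996 in freshly isolated ARVM, which made them at least 1274-fold and 1287-fold lower, taking 3 reads over the cultured libraries as the limit. All 11 listed cardiomyocyte markers fell and were still present, with a summed level between 1442320 and 1465020 before and between 151678 and 186154 after culture. Lymphocyte, Schwann cell and adipocyte markers were mostly not in the table, with 4 of 13, 1 of 9 and 3 of 8 listed.

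**Figure D5:**
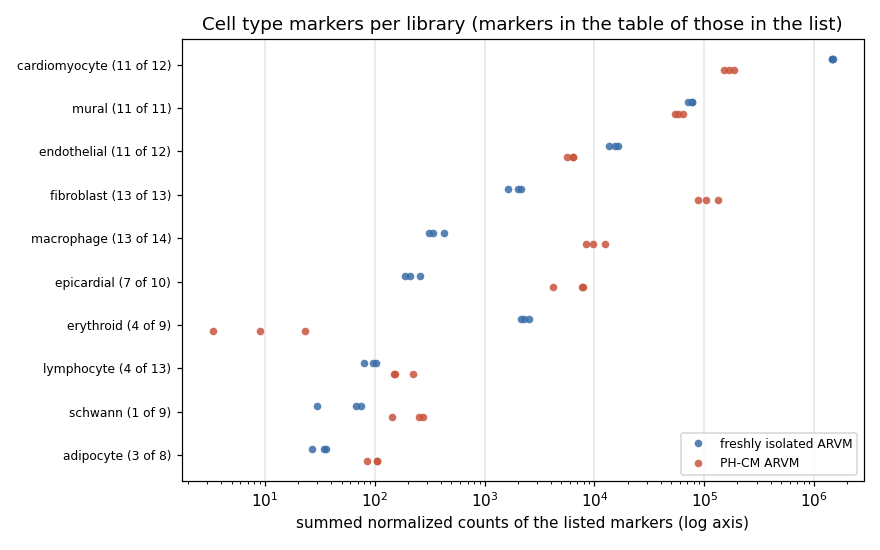
Summed normalized counts of the listed markers of 10 cell types are plotted on a log axis, 1 point per library, blue for freshly isolated ARVM and red for PH-CM ARVM, with the number of markers listed in brackets. Fibroblast, macrophage and epicardial sums move up by more than 1 power of 10 while cardiomyocyte sums move down by about 1. Cardiomyocyte markers hold the largest sum in both groups, of counts not divided by gene length and of lists of unequal size. Most of the mural sum is Des.

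Collagens and the enzymes that process them had the highest median of the 36 lists. Of 38 members 30 were listed and all 30 rose where 53.9% of all genes rose, with a median of 5.31 log2 units, and their share of reads went from 0.148% ± 0.005602 to 1.46% ± 0.218. Col1a1, a chain of type I collagen, was at 44.3, 72.8 and 73.3 in freshly isolated ARVM and 14965, 15324 and 20981 in PH-CM ARVM (log2 fold change 8.07, SE 0.21, adjusted p = 1.04e-07, limma). Col3a1, type III collagen, was at 886, 763 and 599 in freshly isolated ARVM and 43500.2, 28988 and 54872 in PH-CM ARVM (log2 fold change 5.79, SE 0.23, adjusted p = 4.20e-07, limma). Col4a1, of basement membranes, had most reads of the collagens in freshly isolated ARVM and rose less, from 11777 ± 693 to 27313 ± 2756 (log2 fold change 1.21). Fibrillar chains thus came from low counts in freshly isolated ARVM, and the basement membrane chain from high ones. Loxl1, a lysyl oxidase that cross-links elastic fibers, was at 0, 13.9 and 0 in freshly isolated ARVM and 2288, 1796 and 2681 in PH-CM ARVM, the largest rise of the list. Col11a1, a minor fibrillar chain, was without a read before culture and at 442, 399 and 469.7 in PH-CM ARVM.

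Of 46 other matrix genes 41 were listed, 36 rose and 5 fell, with a median of 4.32. Postn, periostin, a matricellular protein of activated fibroblasts, was at 82.3, 55.7 and 64.05 in freshly isolated ARVM and 8697, 7132 and 9689 in PH-CM ARVM (log2 fold change 6.97, SE 0.16, adjusted p = 8.87e-08, limma). Sparc had the most reads of the list in both groups and was at 10557, 10732 and 9087 in freshly isolated ARVM and 50479.6, 40098 and 56073 in PH-CM ARVM, and Fn1, fibronectin, went from 319 ± 40.7 to 12798 ± 1445. Mfap5, of microfibrils, and Cthrc1 were without a read before culture and reached 534, 405 and 934 and 331, 370.1 and 394 after culture. The 5 that fell, chosen after their values were seen, were Vtn, vitronectin, Ogn, osteoglycin, the laminin chains Lamb2 and Lamc1, and Cyr61. Of 34 proteases and inhibitors 20 were listed, 14 rose and 6 fell. Mmp2, gelatinase A, rose from 362 ± 26.3 to 4438 ± 636, its inhibitor Timp1 from 915 ± 148 to 4618 ± 732, and Mmp12, macrophage elastase, from no read to 808, 544 and 903. Of the 13 fibroblast markers, 8 are also members of these lists, namely the collagen genes Col1a1, Col1a2 and Col3a1 and the matrix genes Postn, Mfap5, Dcn, Lum and Dpt, so the marker and matrix counts are not independent.

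Genes of the smooth muscle and non-muscle cytoskeleton rose in most listed members. Of 39 members 35 were listed, 33 rose and 2 fell, with a median of 1.70 and a share that went from 0.841% ± 0.00967 to 2.67% ± 0.324. Actb, β-actin, was at 8756, 10309 and 8976 in freshly isolated ARVM and 41026, 31848 and 49399 in PH-CM ARVM, highest in library ha211. Acta2 was at 299, 307 and 274 in freshly isolated ARVM and 8849, 8918 and 12255 in PH-CM ARVM (log2 fold change 5.07, SE 0.13, adjusted p = 1.01e-07, limma). Actg2, enteric smooth muscle actin, was at 7.91, 6.43 and 5.17 in freshly isolated ARVM and 1665, 1438 and 2033 in PH-CM ARVM, the largest rise of the list. The 2 that fell were Myl12a, a non-muscle myosin light chain, from 47917 ± 1002 to 27953 ± 572, and Msn, moesin, from 7402 ± 414 to 4759.9 ± 166, the latter picked after its value was seen. Of 13 tubulins 12 were listed and 10 rose, with Tubb5 from 9173 ± 618 to 25342 ± 2354 and Tubb3, the neuronal form, from 82.5 ± 20.3 to 595 ± 124. Tuba8 and Tuba4a fell and were chosen after their values were seen.

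Of 36 integrins and related adhesion genes 21 were listed, 16 rose and 5 fell. Sdc4, syndecan 4, of focal adhesions, was at 845, 868 and 910.1 in freshly isolated ARVM and 7402, 5552 and 7514 in PH-CM ARVM, and Itga11, a collagen receptor of fibroblasts, rose from 3.83 ± 3.37 to 177 ± 44.7. Itga7, the laminin receptor of muscle, went from 10666 ± 837 to 7999 ± 525 (log2 fold change -0.41), and its sign turned with equal totals. Itgb1bp2, melusin, a muscle integrin partner picked after its value was seen, fell from 2980 ± 189 to 237 ± 26.8.

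The fetal program did not move as 1 group. Of 18 members 12 were listed, 5 rose and 7 fell, with a median of -0.56, or -0.14 with equal totals. Besides Myh7 and Acta2, the rises were Actn1, from 464 ± 74.7 to 1835 ± 169, Islr, from 4.22 ± 7.31 to 161 ± 15.997, and Runx1, a factor picked after its value was seen, from 118 ± 33.6 to 235 ± 30.9. The natriuretic peptides, named after their values were seen, were lower, Nppa at 7682, 7321 and 7036 in freshly isolated ARVM and 6222, 5899.5 and 4053 in PH-CM ARVM (log2 fold change -0.47, SE 0.15, adjusted p = 0.0164, limma) and Nppb at 8935, 8477 and 8718 in freshly isolated ARVM and 5502, 5688 and 4344 in PH-CM ARVM (log2 fold change -0.76, SE 0.10, adjusted p = 2.23e-04, limma). Acta1, Ankrd1, Dab2, Myl7 and Myl4, the last an atrial light chain, fell too, with Dab2 and Myl4 named after their values were seen. With equal totals 5 members of the list were called higher and 5 lower. The change of Nppa was near the 0.42 by which equal totals raised the median log2 fold change. Whether Nppa fell therefore rests on the scaling.

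Genes of mitosis rose in every listed member, most of them from low levels. Of 58 members 49 were listed and all 49 rose, with a median of 4.38, and their share of reads went from 0.0117% ± 5.95e-05 to 0.1202% ± 0.0204. Cks2, a partner of cyclin-dependent kinases, had the most reads of the list in PH-CM ARVM and was at 328, 372 and 368 in freshly isolated ARVM and 1633, 1398 and 1482 in PH-CM ARVM (log2 fold change 2.08, SE 0.094, adjusted p = 7.71e-07, limma). Kif22, a chromosome-moving kinesin, had the most in freshly isolated ARVM and was at 552, 446 and 447 in freshly isolated ARVM and 953, 921 and 1152 in PH-CM ARVM. Ube2c, which tags cyclins for destruction, had the largest rise and was at 0, 9.64 and 0 in freshly isolated ARVM and 400.0, 244 and 369.8 in PH-CM ARVM. Levels stayed low beside those of sarcomere genes, and library ha209 was the lowest of the cultured libraries, with a share of 0.0985% against up to 0.139%. Of 51 replication genes 41 were listed, 37 rose and 3 fell, with a median of 1.18. Ccnd1, cyclin D1, rose from 744 ± 44.4 to 2710.3 ± 256, Ccnd2, cyclin D2, fell from 2740.5 ± 138 to 1640.1 ± 364, and Rrm2, of ribonucleotide reductase, rose from 6.31 ± 5.47 to 488 ± 102. The other 2 that fell, chosen after their values were seen, were Mcm7 and Pola2.

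Of 38 inhibitors of the cycle, p53 targets and apoptosis genes 19 were listed, 13 rose and 6 fell. Over all genes 53.9% rose and 43.7% fell. Cdkn1c, the inhibitor p57, was at 34.8, 64.3 and 57.8 in freshly isolated ARVM and 923, 1152 and 932 in PH-CM ARVM, while Ccng1 fell from 16068 ± 931 to 8872 ± 685 and Gadd45a from 9875 ± 721 to 5194 ± 634. Fibroblasts, macrophages and mesothelial cells, whose markers rose in the same libraries, can divide in culture, and their part in the rise of mitosis genes was not tested.

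Promoters are shown for mitosis genes. All 49 listed members rose, so a link of promoter elements to the change cannot be tested within this list and was not tested. Promoters of this list hold elements that all promoters hold less often. Such promoters are known for CCAAT boxes, bound by NF-Y, and for the cell cycle genes homology region (CHR), bound by the DREAM complex. Promoters were taken from RefSeq on the build GRCr8, from 250 bases before to 50 after the start, for 41 of the 49 listed genes. CCAAT was searched on both strands and occurred in 30 of these 41, or 73.2%, against 37.3% of 5596 promoters of genes of the table and 37.7% of all 27457. TTTGAA, the CHR, was also in 30 or 73.2%, against 11.5% and 18.1%. Both stood together in 24 of 41 or 58.5%, against 4.54% and 7.25%. The 120 bases before the start follow for 5 genes, with CCAAT (or ATTGG on the other strand) and TTTGAA (or TTCAAA) in capitals. Cks2 and Kif22 are shown as the members with the most reads in each group, and Cdk1, Cdc20 and Ccnb2, the mitotic kinase, an activator of cyclin destruction and a mitotic cyclin, were chosen after their values were seen.
Cks2: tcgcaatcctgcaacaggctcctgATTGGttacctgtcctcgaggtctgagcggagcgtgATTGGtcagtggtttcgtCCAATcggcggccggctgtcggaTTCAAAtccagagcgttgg
Kif22: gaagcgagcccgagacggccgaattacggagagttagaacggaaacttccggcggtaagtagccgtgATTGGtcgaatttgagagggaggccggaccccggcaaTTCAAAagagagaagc
Cdk1: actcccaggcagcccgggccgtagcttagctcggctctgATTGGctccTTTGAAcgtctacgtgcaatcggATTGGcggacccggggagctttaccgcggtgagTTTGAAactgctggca
Cdc20: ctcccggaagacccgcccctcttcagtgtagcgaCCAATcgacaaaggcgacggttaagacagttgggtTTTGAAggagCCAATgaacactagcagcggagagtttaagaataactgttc
Ccnb2: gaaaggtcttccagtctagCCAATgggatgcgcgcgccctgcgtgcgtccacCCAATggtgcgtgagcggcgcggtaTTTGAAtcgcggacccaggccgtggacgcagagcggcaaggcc

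These stretches lie at chr17:13727520-13727639, minus strand, chr1:191080879-191080998, minus strand, chr20:19265173-19265292, plus strand, chr5:137255800-137255919, minus strand and chr8:79981659-79981778, minus strand, and each is written along the gene. In each of the 5, a CCAAT box stands upstream of a CHR, and Cks2 holds 3 CCAAT boxes. Cdk1 rose from 6.55 ± 5.81 to 672 ± 271, Cdc20 from 63.5 ± 12.8 to 719.9 ± 146 and Ccnb2 from 17.04 ± 8.57 to 197 ± 26.4. The replication list differed from the mitosis list in this respect, with CCAAT in 18 and the CHR in 3 of 31 promoters, and both in 1. TTCCCGCC, an E2F site, was in 5 of the 31 or 16.1%, against 4.88% of mitosis promoters, 3.73% of those of the table and 2.02% of all. CCAAT was also in 19 of 25 promoters of sterol and fatty acid synthesis, in 9 of 12 of tubulins and in 21 of 35 of ER folding and transport. TCACNCCAC, a sterol element in which N is any base, was in 0 of those 25, against 1.23% of promoters of the table. TNAAGGTCA, an element of estrogen-related receptors, was in 3 of 63 oxidative phosphorylation promoters or 4.76%, against 0.572% of those of the table. Over all genes called higher and all called lower, CCAAT stood in 37.9% and 36.7%, and the CHR in 11.7% and 11.2%.

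The CArG box, bound by serum response factor, was in 4 of 16 contractile promoters or 25%, against 1.13% of those of the table and 1.64% of all. The other 12 contractile promoters lacked it. It was in 2 of 10 promoters of immediate early genes, in 2 of 22 of the Z-disc list and in 1 of 29 of the smooth muscle and non-muscle list. The 120 bases before the start are given for Acta1 and Actg1, members of the actin family that went in opposite directions, with the CArG box in capitals.
Acta1: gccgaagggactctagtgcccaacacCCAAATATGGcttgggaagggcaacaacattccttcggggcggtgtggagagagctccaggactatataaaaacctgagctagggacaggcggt
Actg1: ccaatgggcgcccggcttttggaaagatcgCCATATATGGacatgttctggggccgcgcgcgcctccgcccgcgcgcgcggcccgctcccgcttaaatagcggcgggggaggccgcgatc

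They lie at chr19:68784195-68784314, minus strand and chr10:106120952-106121071, minus strand. Acta1 fell 49.8-fold, and Actg1, cytoplasmic γ-actin, picked for this contrast after its value was seen, rose from 8113 ± 509 to 29060.5 ± 4926. A match is a match of letters and does not show that a factor was bound.

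Transcription factors of the heart were mostly not in the table, and mesenchymal ones were. Of 31 cardiac factors and coactivators 10 were listed, 3 rose and 6 fell, and Nkx2-5, Gata4 and Tbx5 were not listed. Their median was -0.59, or -0.16 with equal totals, where 4 were called higher and 4 lower. Ppargc1a, the coactivator PGC-1α of mitochondrial genes, was at 506, 483 and 555 in freshly isolated ARVM and 268, 220.0 and 212 in PH-CM ARVM (log2 fold change -1.14, SE 0.14, adjusted p = 1.20e-04, limma), and its partner Esrra fell from 3021 ± 134 to 1722 ± 135. Mef2a rose from 1283 ± 89.5 to 1816 ± 211.1. Of 33 mesenchymal and myofibroblast factors 26 were listed, 20 rose and 6 fell, with a median of 1.99. Osr1, a factor of fibroblast precursors, was at 6.33, 0 and 0 in freshly isolated ARVM and 272, 194 and 299 in PH-CM ARVM, and Sox4 rose from 1246 ± 104 to 2340.0 ± 143, while Wwtr1, the Hippo pathway coactivator TAZ, fell from 1549 ± 175 to 971 ± 47.7. Tbx18, also an epicardial marker, rose from 24.1 ± 11.6 to 345 ± 104, and Tcf21, also a fibroblast marker, from 8.08 ± 1.66 to 189 ± 62.8. Of 30 immediate early genes 16 were listed, 9 rose and 6 fell, which is near the 53.9% and 43.7% of all genes. Junb fell from 8008 ± 870.1 to 4710.1 ± 182, Maff from 3825 ± 188 to 2215 ± 61.3, and Egr2 rose from 17.4 ± 3.64 to 351 ± 95.6.

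Lists of secreted signals and their receptors held rises and falls, to be read against the 53.9% of all genes that were called higher. Of 45 genes of TGF-β, BMP and activin signaling 27 were listed, 21 rose and 6 fell, with a median of 1.21. Tgfb3, a TGF-β ligand, was at 182, 228 and 127 in freshly isolated ARVM and 3308, 3033 and 4187 in PH-CM ARVM, Fstl1, a follistatin relative, rose from 387 ± 48.6 to 9558 ± 1987, and Chrd, the BMP antagonist chordin, from 1.07 ± 1.86 to 117 ± 32.4. The receptor subunits Eng, endoglin, and Bmpr2 stood among the falls, from 2731 ± 311 to 1141 ± 95.6 and 1566 ± 85.8 to 813 ± 14.1, the second chosen after its value was seen. Of 49 Wnt and Notch genes 28 were listed, 23 rose and 4 fell. Sfrp2, a secreted Wnt antagonist, rose from 44.9 ± 6.004 to 774 ± 203, Dkk3 from 2736 ± 120.5 to 5297 ± 373, and the receptor Fzd1 from 1099.5 ± 129 to 2059.6 ± 94.7.

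Of 62 receptor tyrosine kinase and IGF genes 42 were listed, 30 rose and 12 fell, with a median of 2.09. Vegfa had the most reads of the list in freshly isolated ARVM and fell from 10956 ± 469 to 6543 ± 1399, with library ha209 above the other cultured libraries. Igf2r, the receptor that clears IGF2, rose from 4634 ± 304 to 7862 ± 447. Nrg1, neuregulin, a growth factor for myocytes, rose from 1.72 ± 2.98 to 118 ± 42.6, and Erbb4, its receptor on myocytes, picked after its value was seen, fell from 259 ± 25.4 to 44.9 ± 9.02. Pdgfra and Pdgfrb, receptors of fibroblasts and mural cells and markers of them, rose from 135 ± 32.2 to 1809.6 ± 192 and 542 ± 99.7 to 3031 ± 431. Of 52 G protein-coupled receptor and RGS genes 32 were listed, 23 rose and 9 fell. Agtr1a, the angiotensin II receptor, was at 12.7, 0 and 17.6 in freshly isolated ARVM and 541, 374 and 659 in PH-CM ARVM, Ptgfr, the receptor of prostaglandin F2α, rose from 854 ± 84.03 to 2676 ± 300.5, and Aplnr, the apelin receptor of endothelium and myocytes, fell from 1631 ± 120.1 to 53.8 ± 16.3.

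Cytokine genes split. Of 61 members 40 were listed, 25 rose and 15 fell, with a median of 0.94. Il1rl1, the receptor of interleukin 33, was at 123, 111 and 96.1 in freshly isolated ARVM and 8362, 9558 and 13217 in PH-CM ARVM (log2 fold change 6.52, SE 0.17, adjusted p = 1.04e-07, limma), and it had the most reads of the list in PH-CM ARVM. Cxcl1, a neutrophil chemokine, was at 7365, 7049 and 7573 in freshly isolated ARVM and 2679, 2385 and 3043 in PH-CM ARVM (log2 fold change -1.45, SE 0.089, adjusted p = 3.60e-06, limma), and it had the most in freshly isolated ARVM. Il6 fell as well, from 596 ± 122 to 64.7 ± 0.359, and Cxcl10, an interferon-induced chemokine, rose from 244 ± 8.04 to 4722 ± 941, both picked after their values were seen. Ccl22, a chemokine of dendritic cells and macrophages, and Ubd, a ubiquitin-like modifier, stood among the 10 largest falls of genes above 1000 normalized counts, Ccl22 at 1820.0, 2112 and 1868 in freshly isolated ARVM and 28.7, 12.9 and 16.9 in PH-CM ARVM and Ubd at 1014, 1222 and 1205 in freshly isolated ARVM and 9.83, 3.45 and 14.4 in PH-CM ARVM.

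Of 45 interferon response and MHC genes 27 were listed, 21 rose and 6 fell, with a median of 0.87. Rsad2, the antiviral enzyme viperin, was at 979.6, 1295 and 1039 in freshly isolated ARVM and 15104, 17670.2 and 15349.5 in PH-CM ARVM (log2 fold change 3.87, SE 0.11, adjusted p = 1.20e-07, limma), and B2m, of MHC class I, went from 32406 ± 1423 to 37119 ± 409. RT1-DMa, which loads peptides on MHC class II, rose from 4.75 ± 8.22 to 348 ± 79.3. The 6 that fell, chosen after their values were seen, were Cd74, Mx1, Mx2, Gbp2, Usp18 and Irf1. Cd74, the MHC class II invariant chain, was at 6778, 6737 and 6559 in freshly isolated ARVM and 523, 424 and 401 in PH-CM ARVM, and Mx1, an interferon-induced GTPase, at 179, 167 and 135 in freshly isolated ARVM and 6.81, 11.2 and 24.5 in PH-CM ARVM. So class II genes went both ways in the same libraries, with 5 listed RT1-D and RT1-B genes up and Cd74 down.

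Sterol and fatty acid synthesis rose in nearly every listed member. Of 38 members 35 were listed, 33 rose and 2 fell, with a median of 1.44 and a share of reads that went from 0.111% ± 0.00114 to 0.318% ± 0.0405. Scd2, a stearoyl-CoA desaturase, was at 174, 167 and 222 in freshly isolated ARVM and 6203, 4530.3 and 7649 in PH-CM ARVM (SE of the log2 fold change 0.19, adjusted p = 3.51e-07, limma), a 32.6-fold rise. Fdps, farnesyl diphosphate synthase, rose from 2716 ± 58.01 to 4575 ± 764. The 2 that fell, named after their values were seen, were Acacb, the acetyl-CoA carboxylase whose product restrains fatty acid oxidation in muscle, from 2675 ± 224 to 1521 ± 128, and Fdft1, squalene synthase, from 2802 ± 125 to 1938 ± 149.

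Of 43 glutathione, thioredoxin and antioxidant genes 34 were listed, 15 rose and 19 fell, and the median of -0.32 turned to 0.11 with equal totals. Gstp1, a glutathione transferase, was at 9037, 10426 and 10359 in freshly isolated ARVM and 38318, 42436 and 35203 in PH-CM ARVM, and Sod3, extracellular superoxide dismutase, rose from 13.4 ± 2.79 to 435 ± 82.5. Hmox1, heme oxygenase 1, fell from 31492 ± 1202 to 17879.9 ± 5981, and library ha209, at 24764, lay above the other 2 cultured libraries. Of 43 heat shock genes 33 were listed, 26 fell and 7 rose, with a median of -0.53, or -0.11 with equal totals. Small heat shock proteins stood among the falls. Hspb6, picked after its value was seen, had the largest fall of the list, at 11849, 11642 and 11851 in freshly isolated ARVM and 1739, 1728 and 1349.9 in PH-CM ARVM. Hspb1 was at 95415, 110575 and 105323 in freshly isolated ARVM and 20428, 24898 and 20889.5 in PH-CM ARVM. The inducible chaperone Hspa1b went the other way, at 592, 560.2 and 454 in freshly isolated ARVM and 10388, 12356 and 10318 in PH-CM ARVM (log2 fold change 4.37, SE 0.11, adjusted p = 1.04e-07, limma).

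The largest rises among genes above 1000 normalized counts were in Thy1, Loxl1, Mfap4, Col1a1, Actg2, Cadm4, Ptx3, Cpxm1, Aldh1a2 and Lyz2. Thy1, a fibroblast surface protein, was at 0, 5.36 and 0 in freshly isolated ARVM and 1625, 1615 and 2327 in PH-CM ARVM. Ptx3, a secreted pattern recognition protein, was at 25.3, 8.57 and 9.297 in freshly isolated ARVM and 3319, 1607 and 3956 in PH-CM ARVM, lowest in library ha209 among cultured libraries. Aldh1a2, a retinoic acid synthesizing enzyme of epicardium, was at 7.91, 7.498 and 13.4 in freshly isolated ARVM and 1667, 1370.1 and 1799 in PH-CM ARVM. The 10 largest falls among such genes were in Hbb, Hba1, LOC102546391, Ubd, Cox8b, Ccl22, Mb, Pgam2, Acta1 and Myh6, genes of blood, muscle and the immune response and a locus known by its number alone. LOC102546391 was at 8557, 8674 and 7472 in freshly isolated ARVM and 15.1, 17.3 and 31.3 in PH-CM ARVM.

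Loci without a read in a whole group were more frequent on the freshly isolated side, 285 against 28. Most were low in the other group, with a median of 15.3 and of 20.0 normalized counts. Among those with no read in freshly isolated ARVM, 23 exceeded 100 normalized counts in PH-CM ARVM, led by Mmp12, Mfap5, Col11a1, Cthrc1 and Aldh1a3. Bnc1, a factor of mesothelium and epithelium, was at 219, 131 and 225 and Stmn2, a neuronal tubulin regulator, at 237, 76.8 and 203, both lowest in library ha209. With no read in PH-CM ARVM, 7 exceeded 100 normalized counts in freshly isolated ARVM. Beside hemoglobin genes these included Slamf7, a receptor of plasma and natural killer cells, at 179, 152 and 126, and Cyp11a1, which starts steroid hormone synthesis, at 139, 127 and 96.1.

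MicroRNA loci were a small set of 27 listed genes, picked by their names after the values were available, of which 16 fell, 7 rose and 4 were not called. Over all genes 43.7% fell and 53.9% rose. Reads at such a locus come from its precursor or host transcript, and mature microRNAs were not measured by these libraries. Mature sequences are shown for 6 microRNAs of loci chosen after their values were seen, with the seed, bases 2 to 8, in capitals, from RefSeq on GRCr8.
rno-miR-27b-3p: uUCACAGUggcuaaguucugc
rno-miR-27a-3p: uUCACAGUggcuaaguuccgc
rno-miR-23b-3p: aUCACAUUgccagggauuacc
rno-miR-24-3p: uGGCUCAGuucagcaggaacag
rno-miR-19a-3p: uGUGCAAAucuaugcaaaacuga
rno-miR-199a-5p: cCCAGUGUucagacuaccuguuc

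The sequences of miR-27a and miR-27b have the same seed. Mir27b was at 109, 126 and 112 in freshly isolated ARVM and 25.7, 25.9 and 35.5 in PH-CM ARVM (log2 fold change -1.97, SE 0.26, adjusted p = 1.96e-04, limma), and Mir23b, of the same cluster, at 34.8, 28.9 and 36.2 in freshly isolated ARVM and 16.6, 11.2 and 13.5 in PH-CM ARVM. Mir27a went from 18.1 ± 2.54 to 7.44 ± 1.81 and Mir24-2, of the second copy of the cluster, from 41.7 ± 6.07 to 16.4 ± 8.98, so that both copies fell. Mir19a, of the cluster of Mir17, was at 45.9, 62.1 and 59.9 in freshly isolated ARVM and 13.6, 4.31 and 19.5 in PH-CM ARVM, and Mir18a of that cluster fell from 39.1 ± 8.25 to 14.9 ± 8.12, while Mir20a at 6.33, 4.28 and 4.13 in freshly isolated ARVM and 3.02, 2.59 and 2.54 in PH-CM ARVM was not called. Mir199a2, which lies in an intron of dynamin 3 on its opposite strand, was at 0, 2.14 and 1.03 in freshly isolated ARVM and 23.4, 13.8 and 21.2 in PH-CM ARVM (log2 fold change 3.43, SE 0.50, adjusted p = 3.74e-04, limma). These levels are low, and whether reads were counted by strand was not given in the sources used here, so that a locus and a transcript opposite it cannot be told apart.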

How the data were processed

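RNA was sequenced after ribosomal depletion from 3 libraries of freshly isolated ARVM and 3 of PH-CM ARVM. Per the labels and methods, the authors aligned reads to rn6 with HISAT2, assembled them with StringTie and normalized with DESeq2; versions were not given in the sources used here. The deposited signal is a normalized count, whole reads per gene divided by 1 size factor per library, and 100% of values came out whole within 0.01 reads. By the methods, the authors kept genes with an expression above 1 and p below 0.05 between the groups, so the table is a selection. The bovine fibroblast table was not used, nor were any columns of comparisons; no column of unmapped samples was present.

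Differences were tested with limma 3.58.1 (trended empirical Bayes, R 4.3.3) on log2 of the value after adding 1, p-values were adjusted by Benjamini-Hochberg across all 7052 genes, with no filter and no covariates. Whether libraries came from separate animals was not given, so p-values measure the spread between these samples. An exact permutation test of 3 against 3 libraries could not go below p = 0.1 and was not used. Alternatives were pseudocounts of 0.1 and 10, a minimum mean of 50, other scalings, no trend, an unequal-variance test, each library left out, and edgeR 4.0.16 and DESeq2 1.42.0 on the recovered reads, where edgeR called 6815 genes. The fit was also run on simulated data in which few genes changed, as many up as down. That setting differs from this table of selected genes, so it does not test the fit under such a selection.

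The comparison, the gene lists and the markers were chosen with earlier results of these data known. Named genes are the 2 members of each list with the highest mean, the called member with the largest change among those with a mean of at least 100, the 10 with the highest mean in each group, the 10 largest rises and falls with a mean of at least 1000, the 10 highest among genes without a read in the other group, the paralog pairs, the markers, and Postn, Acta2, Myh6, Myh7, Actn2, Tnni3 and Atp2a2. Where another gene is named, this is said beside it, and it also holds for members given as the exceptions of a list. A few genes and 1 paralog pair that the rule takes in are not reported here, and they stay in every fit and list. Promoters and mature microRNAs come from RefSeq (GRCr8), matched by symbol, and 25 of 27 microRNA loci were matched. Motifs were searched on both strands, and TATAAA, the TATA box, was searched too and is not described above.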

Additional observations from a re-analysis of the deposited data

How the results depend on the processing

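Called genes numbered 5845 to 6878 under the alternatives other than equal totals, the filter on low values included, and 6452 to 6695 with 1 library left out, against 6882, and no gene turned sign under any of these. Genes called higher ranged from 3535 to 3728 and genes called lower from 2917 to 3000 with 1 library left out. Scaling to equal totals was the exception, with 1588 genes called lower against 3080 and 5598 called in all. It left 33 of 51 mitochondrial ribosomal proteins called and 18 proteasome subunits called against 38. It turned the median log2 fold change of glycolysis genes to 0.21 and of antioxidant genes to 0.11, and the log2 fold change of Cox6a1 to 0.0088, of Itga7 to 0.0094 and of Psme1 to 0.23. These follow from its construction, which raises log2 fold changes, by 0.42 in the median over all genes. Levels divided by coding length were not run, since no gene lengths were given with the references used here. No paired analysis was possible because the groups share no replicate number. At 12122463 to 18842171 reads per library, genes with a few reads are the least precise, and a count of 0 allows up to 3 reads.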
